A study of Arabidopsis thaliana with 12 samples.

Results

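Pentatricopeptide repeat proteins were represented here by 3 nuclear genes of Arabidopsis thaliana, AT3G26630, AT4G21170 and AT1G31790. Each was read by the 1 probe that lists this gene and no other, so that 3 of 3439 probes of the array were described. They are 3 of 692 probes that list a single gene, and these name 691 genes in all. The probes carry the numbers 2395, 2912 and 4503. RefSeq places the protein-coding loci on chromosomes 3, 4 and 1. Positions are not given, because the array comes with no stated genome build.

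Total RNA was hybridised from 6 wild-type samples (WT) and from 6 samples of a mutant, psak, both in ecotype Columbia 0. PSI-K, the photosystem I subunit that is absent from psak, sits in the thylakoid membrane, and the comparison concerns the effect of its absence on transcript levels. The allele, tissue, age, light conditions and number of plants behind a sample are not stated in the sources used here. The 12 samples carry the numbers 1 to 6 within each genotype, and nothing says whether they came from separate plants, so that p-values refer to the variation among these samples alone, which could in part be technical.

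Pentatricopeptide repeat proteins are a very large family in land plants. They are encoded in the nucleus, imported into chloroplasts or mitochondria, and built of short helical repeats that stack into a surface for binding RNA. Members bind particular organelle transcripts and take part in their editing, splicing, end processing, stability or translation. In chloroplasts, such proteins are needed for the expression of several plastid genes of the photosynthetic apparatus. Which organelle transcripts the 3 proteins described here bind is not annotated in the sources used.

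The 3 genes were chosen by a rule written with the measured psak against WT differences known. Among the values known were the calls of the limma fit of 12 samples, in which AT3G26630 and AT4G21170 were past an adjusted p of 0.05 and AT1G31790 was not. With number pairs (1 and 2, 3 and 4, or 5 and 6 of 1 genotype) as a random block AT4G21170 was not past it either, and with each pair averaged none of the 3 was. These calls describe the choice and are no test of the genes, whose differences between genotypes are given below as descriptions. In the fit of 12 samples, of all 2993 probes tested, 14.8% were past this threshold, 8.12% higher in psak and 6.72% lower. Of the 595 tested single-gene probes, 5.71% were higher and 7.73% lower. The share of the 3 genes is fixed by their choice and is not read against these values.

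AT3G26630 was higher in psak. In bulk samples, a change in the number of cells of a type and a change in RNA per cell cannot be told apart, for this gene as for the others. Its deposited intensity, on the authors' scale whose brightest probe stands near 100, was 11.6, 11.2, 10.2, 9.12, 8.49 and 8.11 in WT samples 1 to 6. In psak samples 1 to 6 it was 21.8, 22.0, 17.4, 18.7, 25.3 and 24.7. The groups did not overlap, the lowest psak sample being 1.504 times the highest WT sample. In WT, numbers 1 and 2 were the highest and 5 and 6 the lowest, while in psak numbers 5 and 6 were the highest. The WT mean was 9.78 ± 1.44 (SD, n = 6) and the psak mean 21.7 ± 3.14 (SD, n = 6), a ratio of 2.21. After quantile normalization, which gives every sample the same distribution of values, the log2 difference of psak minus WT was 0.96 ± 0.11 (SE). It was the 50th highest of the 595 tested single-gene probes.

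AT4G21170 was lower in psak. Its deposited intensity was 1.36, 1.39, 1.10, 1.11, 1.81 and 1.76 in WT samples 1 to 6. In psak samples 1 to 6 it was 0.839, 0.702, 0.765, 0.635, 0.623 and 0.729. Again the groups did not overlap, and the lowest WT sample was 1.31 times the highest psak sample. The WT samples stood at 3 levels, 1 per number pair, with numbers 5 and 6 the highest, and the psak samples showed no such steps. The WT mean was 1.42 ± 0.308 (SD, n = 6) and the psak mean 0.716 ± 0.0815 (SD, n = 6), which put WT 1.99 times above psak. The normalized log2 difference was -0.77 ± 0.16 (SE), the 57th lowest of the tested single-gene probes.

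AT1G31790 had lower means in psak, with overlap. Its deposited intensity was 0.295, 0.211, 0.226, 0.203, 0.260 and 0.264 in WT samples 1 to 6. In psak samples 1 to 6 it was 0.231, 0.109, 0.177, 0.180, 0.0968 and 0.156. Of these, 5 of 6 psak samples lay below every WT sample, and psak 1 lay above WT samples 2, 3 and 4. The WT mean was 0.243 ± 0.0358 (SD, n = 6) and the psak mean 0.158 ± 0.0496 (SD, n = 6), a ratio of 0.650. The normalized log2 difference was -0.69 ± 0.25 (SE). Which psak sample overlapped with WT depended on the scale. After normalization it was psak 6 (-1.95), above every WT sample except WT 1 (-1.68). On that scale psak 1 (-2.51) lay below all WT samples, of which WT 4 (-2.25) was the lowest.

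**Figure D1:**
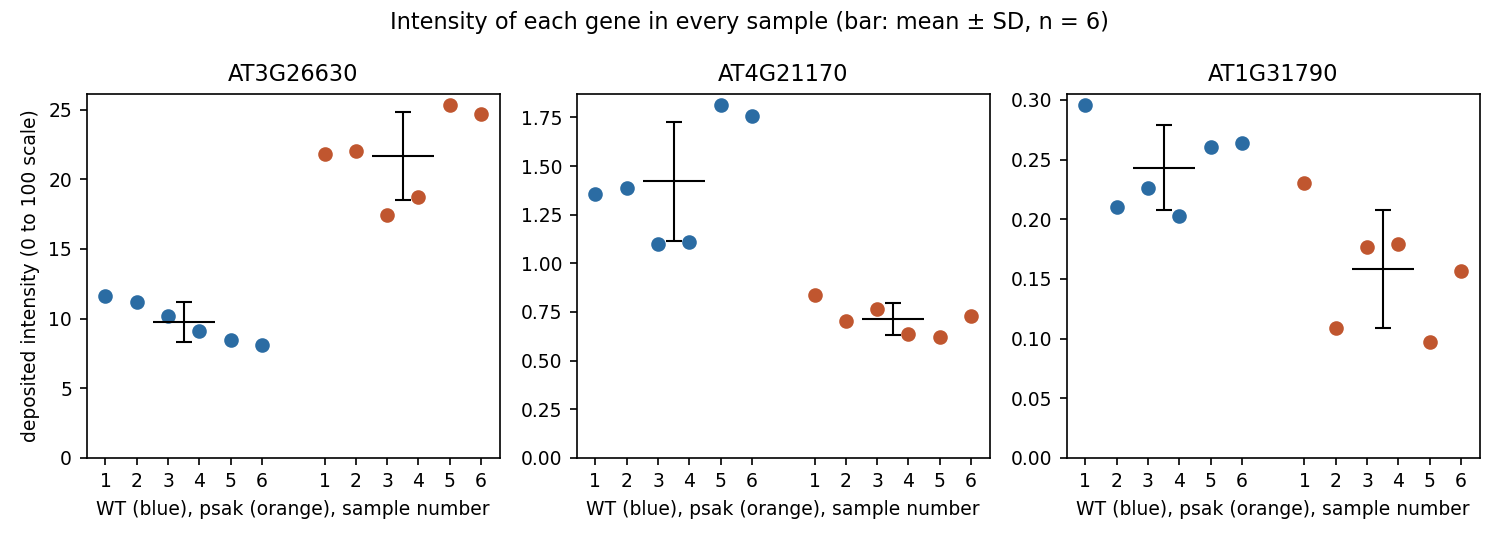
Deposited intensity (vertical axis, linear, 0 to 100 scale) of each gene in WT samples 1 to 6 (blue) and psak samples 1 to 6 (orange); each point is 1 sample and the black bar is the mean ± SD of 6 samples. The psak samples of AT3G26630 all lie above WT, those of AT4G21170 all below WT, and those of AT1G31790 overlap with WT through psak 1.

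Among the 476 single-gene probes above 0 in every sample, 2.94% had all psak samples above all WT samples in the deposited values, as AT3G26630 had. Another 9.24% had all psak samples below all WT samples, as AT4G21170 had. These shares are given as background only, because the separation belongs to the comparison by which the genes were chosen. They hold for the deposited values, in which psak 5 and 6 had the lowest log2 medians of values above 0 (-2.15 and -2.20). The same shares after normalization are not given here.

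The 3 probes differed widely in brightness. Brightness of different probes also depends on the probes themselves, so that a rank is not an amount of transcript. The probe of AT3G26630 was the 11th brightest of 692 single-gene probes in the WT means and the 8th brightest in the psak means. Over the single samples it stood at ranks 10 to 13 in WT and at 7 to 8 in psak. Its mean over all 12 samples, 15.7, was 58.7 times the median of the single-gene probes, 0.268. The probe of AT4G21170 ranked 71st in WT and 123rd in psak, with single samples at 56 to 87 and at 104 to 159. The probe of AT1G31790 ranked 363rd in WT, close to the median, and 481st in psak. Its single samples ran from 294 to 397 in WT and from 328 to 539 in psak, and these 2 ranges of ranks overlapped.

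**Figure D2:**
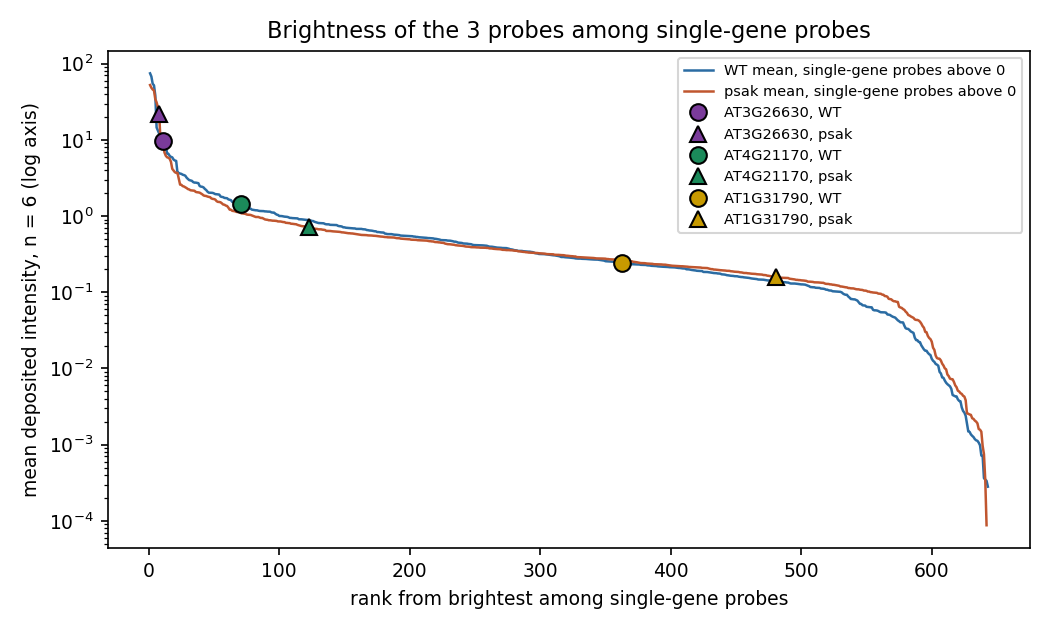
Mean deposited intensity (vertical log axis, n = 6 per genotype) against rank from the brightest among 692 single-gene probes, with lines for WT (blue) and psak (orange) and markers for the 3 genes (circles WT, triangles psak). AT3G26630 lies at ranks 11 and 8, AT4G21170 at 71 and 123, and AT1G31790 at 363 and 481.

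A second probe, number 113, lists AT3G26630 together with AT2G42920 and was therefore not used for either gene. It was far dimmer than the single-gene probe. In WT its intensity was 0.0842 ± 0.132 (SD, n = 6), with 2 samples listed at 0 and a highest value of 0.320. In psak it was 0.0266 ± 0.0395 (SD, n = 6), with 3 samples listed at 0. Both probes carry the name AT3G26630, while 1 of them was among the brightest of the array and the other near its floor. Which of them reports the transcript was not tested, because no probe sequences were used here.

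The single-gene probes next to each gene in mean brightness over all 12 samples were tested in the same fit. The next brighter probe to AT3G26630 was that of LHB1B2, a light-harvesting antenna protein of photosystem II, with a mean intensity of 21.6. It was higher in psak by a log2 difference of 0.997 ± 0.19 (SE; limma adjusted p = 0.00497). The next dimmer probe, AT1G76450 with a mean of 12.1, was lower in psak, with a log2 difference of -0.82 ± 0.25 (SE; limma adjusted p = 0.0455). The first passed under 19 of 20 alternatives (limma adjusted p from 0.000665 to 0.209) and the second under 7 of 20 (0.0149 to 0.349), not with the random block for number pairs. These neighbours thus differed in opposite directions. Beside AT4G21170 stood AT3G54550, with a log2 difference of -0.24 ± 0.16 (SE), and AT4G07670, with -0.02 ± 0.12 (SE). Beside AT1G31790 stood AT1G73740, with 0.64 ± 0.60 (SE), and GH9B11, with 0.51 ± 0.42 (SE). None of these 4 passed the test (limma adjusted p = 0.351, 0.947, 0.504 and 0.450).

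Samples with neighbouring numbers were alike for AT3G26630 and, in WT, for AT4G21170. Likeness within number pairs was not particular to these genes. Over all tested probes, limma estimated a correlation of 0.59 within number pairs of a genotype, which the fit of 12 samples does not allow for. For AT3G26630, the 2 samples of a number pair differed by at most 1.12-fold in WT and 1.07-fold in psak, while the means of different pairs differed by up to 1.37-fold and 1.38-fold. For AT4G21170 in WT, the samples differed by at most 1.03-fold within a pair and the pair means by up to 1.62-fold. In psak the gaps were up to 1.21-fold within a pair and 1.14-fold between pair means. For AT1G31790 the gaps within pairs were the wider ones, at most 1.40-fold in WT and 2.13-fold in psak, against 1.22-fold and 1.45-fold between pairs. The labels do not say what neighbouring numbers share.

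Number pairs of WT and psak are set side by side here by number only, since the labels give no reason to match them. Within the number pairs, AT3G26630 was 1.92, 1.87 and 3.01 times as high in psak as in WT in the deposited values of numbers 1-2, 3-4 and 5-6. The step at numbers 5-6 was not seen after normalization, where the log2 differences were 0.97, 0.90 and 1.01. For AT4G21170, WT stood 1.78, 1.58 and 2.64 times above psak, and the normalized log2 differences were -0.75, -0.55 and -0.99. For AT1G31790, WT stood 1.49, 1.204 and 2.07 times above psak. Its normalized log2 differences were -1.21, -0.79 and -0.07, so that the pair with the widest deposited gap had the smallest normalized one. Of 476 single-gene probes with a value in all pairs, 39.5% had 1 direction in all 3 pairs, as the 3 genes had. For AT1G31790 the normalized difference of -0.07 in numbers 5-6 was 0.15 above the median of the single-gene probes.

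In psak 5 and psak 6, 18.1% and 19.4% of all probes were listed at 0, more than in any other sample (13% to 16.5%). The log2 median of values above 0 was -2.15 and -2.20 in psak 5 and 6, against -1.39 to -1.25 in psak 1 to 4. In WT 5 and 6 it was -1.29 and -1.28, higher than the -1.66 to -1.56 of WT 1 to 4. In the deposited values, the median log2 difference of the single-gene probes was 0.37 and 0.23 in numbers 1-2 and 3-4 but -0.99 in numbers 5-6. Set against these medians, the deposited log2 difference of AT3G26630 was 0.58, 0.68 and 2.58 in the 3 pairs. That of AT4G21170 was -1.20, -0.89 and -0.42, and that of AT1G31790 was -1.02, -0.49 and -0.10. In numbers 5-6 the deposited difference of AT1G31790 was thus close to that of the median probe, and that of AT3G26630 had the opposite sign. After normalization, the same subtraction gave 0.86, 0.82 and 1.24 for AT3G26630 and -0.86, -0.63 and -0.77 for AT4G21170. For AT1G31790 it gave -1.32, -0.87 and 0.15. Whether a single median suits bright and dim probes alike was not tested, and the differences set against the medians in numbers 5-6 depend on this choice. Without psak 5 and 6, the ratio of deposited means, psak over WT, was 2.04 for AT3G26630, 0.517 for AT4G21170 and 0.715 for AT1G31790. What sets psak 5 and 6, or WT 5 and 6, apart was not tested.

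**Figure D3:**
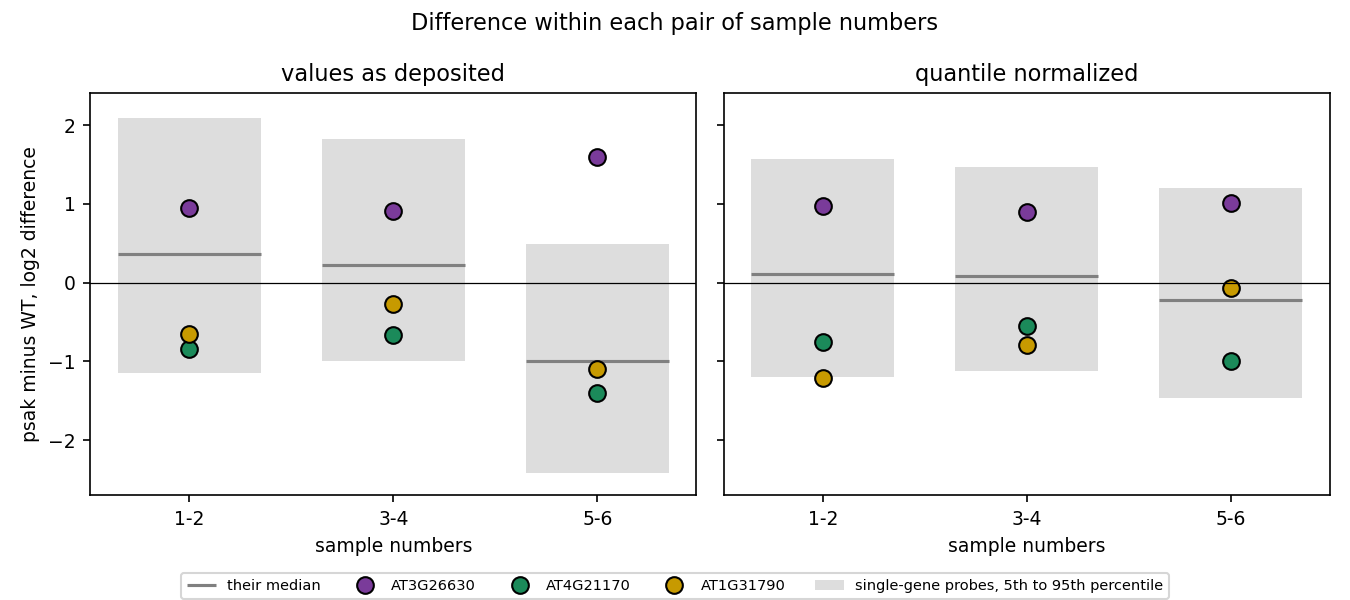
Log2 difference of psak minus WT (vertical axis) within sample numbers 1-2, 3-4 and 5-6, for the values as deposited (left) and quantile normalized (right); points are the 3 genes, grey bars the 5th to 95th percentile of the single-gene probes and grey lines their median. In numbers 5-6 the deposited bar is shifted down to a median of -0.99, and AT1G31790 lies 0.10 below it, or 0.15 above the median after normalization.

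Of the 3 genes, the brightest had the smallest spread between samples of a genotype. In the deposited values, the within-genotype SD on the log2 scale was 0.21 for AT3G26630, 0.25 for AT4G21170 and 0.37 for AT1G31790, against a median of 0.53 over the 476 single-gene probes above 0 in all samples. After quantile normalization it was 0.07, 0.23 and 0.43, against a median of 0.44. The normalized SD of AT3G26630 was the smallest of all 476 probes, whereas in the deposited values it ranked 32nd from the smallest. Quantile normalization replaces each value by one set by its rank in the sample. Among all 3439 probes, that of AT3G26630 ranked between 44 and 55 in WT and between 24 and 27 in psak, so that its normalized values hardly varied within a genotype. For AT1G31790 the normalized SD was 0.21 in WT and 0.57 in psak (n = 6 each), with psak 2 the lowest and psak 6 the highest.

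**Figure D4:**
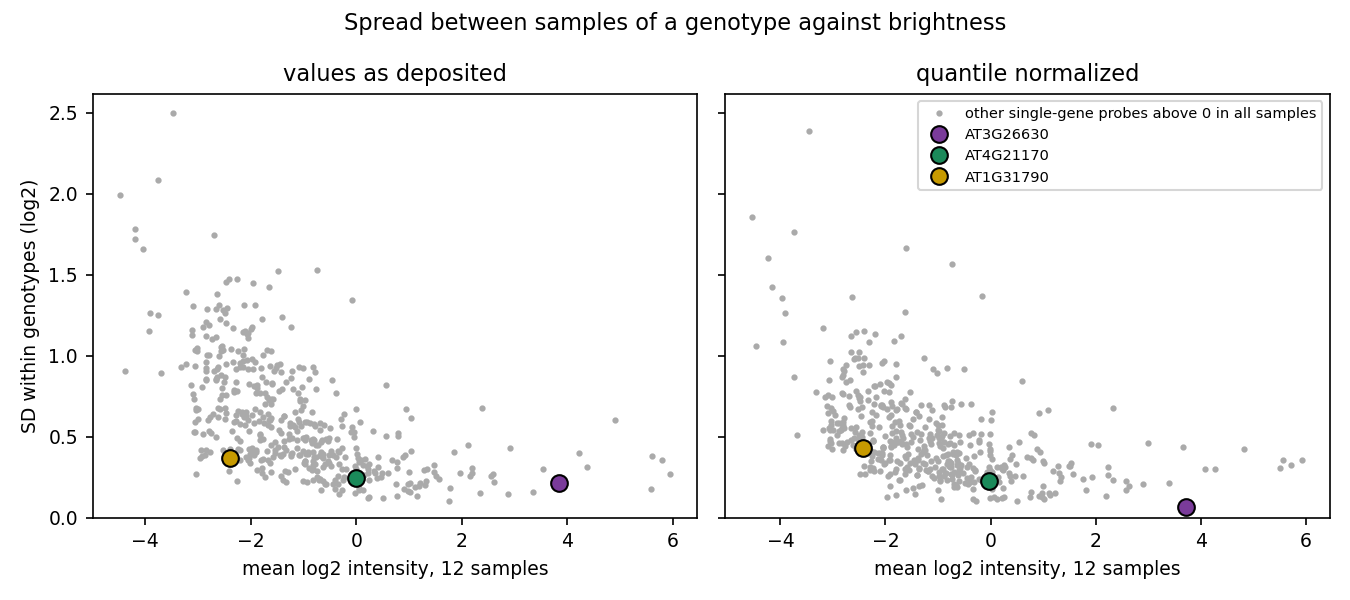
Within-genotype SD (vertical axis, log2) against mean log2 intensity over 12 samples for the 476 single-gene probes above 0 in every sample (grey) and the 3 genes (coloured), for values as deposited (left) and quantile normalized (right). The SD of AT3G26630 goes from 0.21 on the left to 0.07 on the right, the smallest of all probes shown there.

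The single-gene probes most like each gene were sought by Pearson correlation of normalized log2 values over the 12 samples, among 475 others above 0 in every sample. These correlations describe samples that share a genotype and, within number pairs, are alike, and they carry no test. AT3G26630 was most like AT5G11650 (r = 0.94), CYN (r = 0.94), which encodes a cyanase, and AT3G06570 (r = 0.93). The mean of CYN in WT was 0.946 ± 0.190 (SD, n = 6), and that in psak 1.77 ± 0.344. AT4G21170 was most like AT3G04650 (r = 0.93), AT1G73430 (r = 0.92) and AT4G23080 (r = 0.91). AT3G04650 stood at 3.70 ± 0.632 (SD, n = 6) in WT and 1.68 ± 0.180 in psak. AT1G31790 was most like AT3G58570 (r = 0.89), AT4G39230 (r = 0.87) and AT2G37880 (r = 0.87), and AT3G58570 stood at 0.296 ± 0.0318 (SD, n = 6) in WT and 0.199 ± 0.0709 in psak.

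With the genotype means subtracted, the highest r for AT3G26630 was 0.68 (AT3G51500), followed by 0.67 (AT1G49940) and 0.53 (AT1G21350). All 3 of these probes were dim, with WT means of 0.160, 0.0642 and 0.134. For AT4G21170 the highest were AT4G18180 (r = 0.81), MAMI (r = 0.78) and AT2G25640 (r = 0.77). For AT1G31790, AT3G58570 (r = 0.80) and AT4G39230 (r = 0.76) came first again, followed by AT1G24040 (r = 0.75). Between the genes themselves, r after this subtraction was -0.37 for AT3G26630 with AT4G21170, 0.04 for AT3G26630 with AT1G31790 and 0.33 for AT4G21170 with AT1G31790 (12 samples).

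The gene tables used here give symbols and synonyms and have no column of protein descriptions. The words pentatricopeptide or PPR appear there for 0 of the 692 single-gene probes, those of the 3 genes included, so that further family members on the array could not be counted this way. Recognisable by their symbols were 3 further probes of the family: OTP70, which takes part in the splicing of a plastid transcript for RNA polymerase, and CRR21 and OTP85, which take part in the editing of plastid ndhD transcripts. OTP70 had a deposited WT mean of 0.550 ± 0.0535 (SD, n = 6) and a psak mean of 0.506 ± 0.0926, and a normalized log2 difference of 0.02 ± 0.12 (SE; limma adjusted p = 0.945). CRR21 stood at 0.393, 0.416, 0.496, 0.534, 0.610 and 0.497 in WT samples 1 to 6. In psak samples 1 to 6 it stood at 0.681, 0.645, 0.656, 0.592, 0.325 and 0.303. Here psak 1 to 4 were in or above the upper range of WT, and psak 5 and 6 below all WT samples. Its log2 difference was 0.27 ± 0.15 (SE, limma adjusted p = 0.277). Without psak 5 and 6 it was 0.40 ± 0.12 (SE, limma adjusted p = 0.0321), in a setting where 947 of 2966 probes passed. Over 20 alternatives, the limma adjusted p of CRR21 ran from 0.0321 to 0.929. OTP85 was above 0 in 1 WT and 3 psak samples, too few for the test, and with an offset that keeps zeros it did not pass (limma adjusted p = 0.620). Of the 2 genes tested, 0 passed with limma, against 14.8% of all probes, and 0 had an unadjusted p under 0.05, against 874 of 2993 probes. These 2 stand only for the family genes that a symbol identifies. Their median log2 difference was 0.14, against -0.00261 over all 2993 probes.

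A list of 29 other genes of organelle RNA metabolism, which held editing cofactors, sigma factors, chloroplast ribonucleoproteins, splicing factors and ribonucleases, had 0 single-gene probes on the array. The gene of the missing subunit, PSAK, likewise has no probe of its own, and its level could not serve as a check of the labels.

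**Figure D5:**
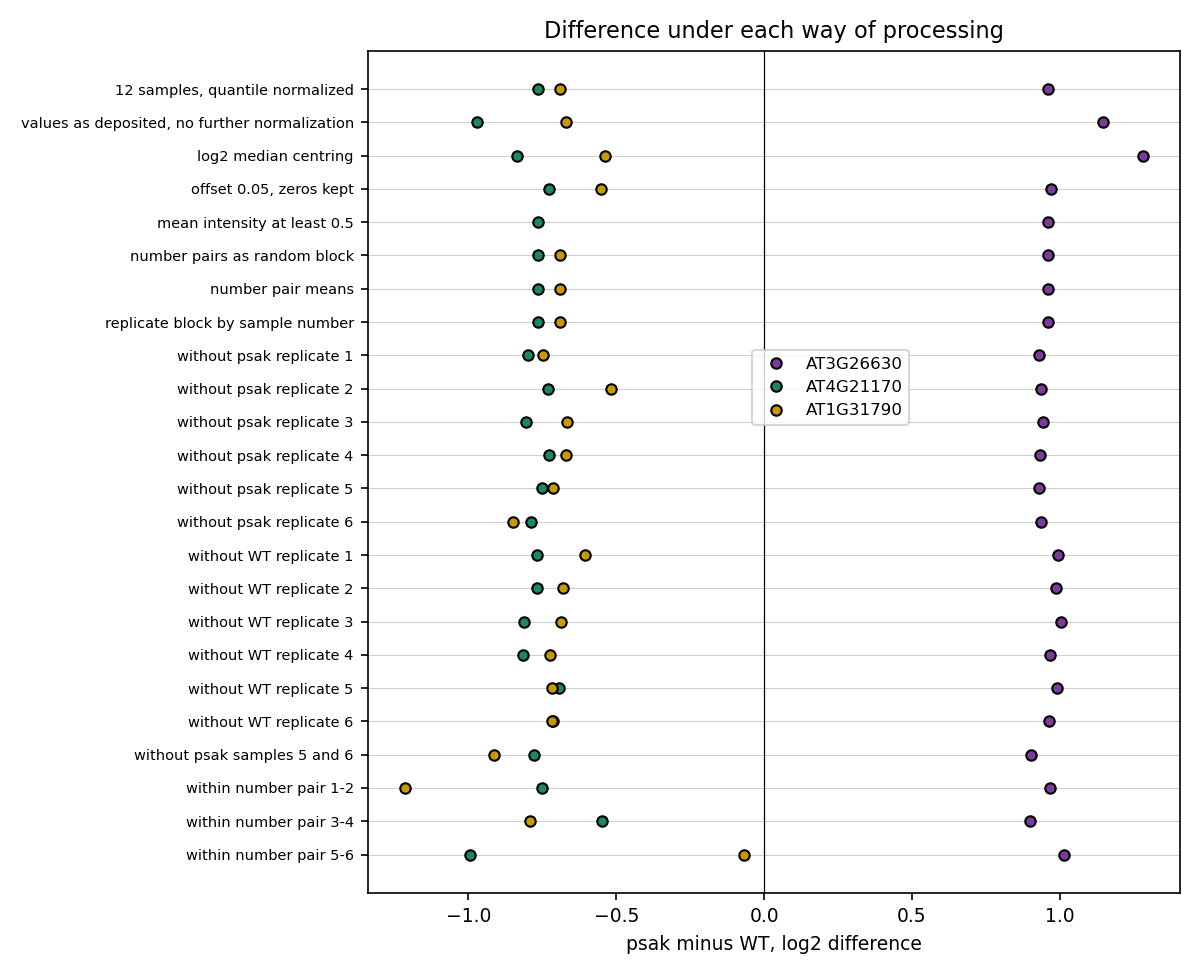
Log2 difference of psak minus WT (horizontal axis) of the 3 genes under each way of processing the values (vertical axis, 1 line each); AT1G31790 has no point where only probes with a mean intensity of at least 0.5 were kept. AT3G26630 lies between 0.90 and 1.28 and AT4G21170 between -0.99 and -0.55, while AT1G31790 runs from -1.21 to -0.07.

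Across the ways of processing, the sign of each gene's difference was the same. Several of them could not change it: the filter on dim probes, the random block, the pair means and the replicate block leave the difference itself as it was. Fits without 1 sample share the remaining samples, and the genes were chosen with this comparison known, so that the constant sign is a description only. The number of probes past the threshold, however, depended on how neighbouring numbers were treated. With number pairs as a random block within each genotype, which allows for noise shared within a pair, 154 probes (5.15%) were past it, AT3G26630 among them. With each pair averaged to 1 value, 0 probes were past it with limma, while 465 of the 2965 tested had an unadjusted p under 0.05. AT1G31790 was past the threshold without psak 6, where 543 of 2978 probes were, and without psak 5 and 6, where 947 of 2966 were. Without psak 5 alone, 583 of 2983 probes were past it, and AT1G31790 was not among them. Calls thus rose over the whole array in each of these settings, and the call is no test of this gene.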

How the data were processed

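The authors deposited 1 intensity for each probe in each sample, on a linear scale from 0 to about 100. The sources used here do not say how the arrays were scanned and scaled, and hence what a 0 stood for. Sums per sample ran from 2967 to 3460, and 13% to 19.4% of probes were at 0. Precision is limited by having 6 samples per genotype. Probe names come from the platform's probe table, with symbols from RefSeq TAIR10.1 (690 of 692 single-gene probes matched).

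Zeros were treated as missing, the other values taken to log2 and quantile normalized, since sums and medians differed. Probes with at least 2 values per genotype (2993 of 3439) entered limma 3.58.1 (R 4.3.3, two-sided, Benjamini-Hochberg over all tested probes). The fit was also run on simulated data. The simulated samples were independent of each other, so that this run says nothing on noise shared within number pairs. Figures used matplotlib 3.10.9 in Python 3.11.15.

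The genes and lists were chosen with earlier results of these data known. The planned search for family names found no gene in tables that have no column of protein descriptions, and OTP70, CRR21 and OTP85 were then listed by symbol. Named genes were the 3 members, the single-gene probes next in mean brightness, the 3 most correlated with each (with and without genotype means), and the genes of both lists on the array. Same-numbered WT and psak samples had correlations of deviations from 0.0798 to 0.239, and the labels give no reason to pair them.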

Additional observations from a re-analysis of the deposited data

Results flagged for a closer look

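In groups of 6 samples, a sample was singled out where its gap to the nearest other, divided by the whole range, exceeded Dixon's critical value for that size. Over 116 groups of named probes and sample measures, 6 were singled out. Chance gives about 1 in 20 for independent samples, and samples of a number pair are alike, so that the rate expected here is not known.

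For AT1G31790, WT sample 1 was singled out as the highest on the normalized log2 scale (ratio 0.684), at -1.68 against -2.07 for the nearest other. In the deposited values it was also the highest WT sample but was not singled out. Without it the log2 difference of AT1G31790 was -0.60.

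The other 5 belong to probes named for comparison. On the normalized log2 scale, the lowest sample lay far from the rest for AT3G51500 in psak 6 (ratio 0.656), AT1G21350 in WT 6 (0.772), AT1G49940 in WT 6 (0.647) and MAMI in psak 2 (0.840). The first 3 of these are the dim probes most like AT3G26630 after the genotype means were subtracted. For OTP85, WT sample 1 was the only WT sample above 0, at 0.00169 (ratio 1).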

How the results depend on the processing

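Alternatives changed 1 choice at a time. The 444 probes past the threshold in the test of 12 samples became 283 with log2 median centring, 154 with number pairs as a random block, 0 with number pair means and 947 without psak samples 5 and 6. Leaving out 1 sample gave 327 to 583. The values as deposited split the calls into 146 higher and 275 lower, against 243 and 201, with a median log2 difference of all probes of -0.11. For AT3G26630 the log2 difference moved from 0.96 to 1.15 with the values as deposited, 1.25 above that median, and to 1.28 with median centring. Leaving out 1 sample gave 0.93 to 1.003. For AT4G21170 it moved from -0.77 to -0.99 within numbers 5-6, and leaving out 1 sample gave -0.82 to -0.69. For AT1G31790 it moved from -0.69 to -1.21 within numbers 1-2 and -0.068 within numbers 5-6, and leaving out 1 sample gave -0.85 to -0.52. The cause of these shifts was not tested. The count of further family genes past the threshold went from 0 to 1 (CRR21) without psak 5 and 6, and stayed 0 without any 1 sample. With sample number as a replicate block shared by both genotypes, 432 probes passed, with the same 2 of the 3 genes, so that this block changed no call among them; every log2 difference of the 3 genes was unchanged by construction. No difference of the 3 genes reversed, though several settings could not change it. AT1G31790 had no value with the filter on dim probes. Signal near 0 limits what can be said of OTP85, at 0 in 5 WT and 3 psak samples.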
